A study of Homo sapiens with 7 samples.

Results

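The most recurrent H3K27ac HiChIP contacts of Ishikawa cells were described here. They are called core loops: pairs of 2 different anchors on 1 chromosome that had a row in all 4 blocks of the deposited Ishikawa loop list, where a block is a stretch of the list that runs through the chromosomes once. The members were chosen by the number of blocks that carried them, which is itself a measured value, so their recurrence and their read pairs are given as a description. There were 6527 core loops among 163530 distinct pairs, or 3.99%. The other pairs were carried by 3 blocks (15256 pairs), by 2 blocks (33559) or by 1 block (108188). The last set, called loops seen once, was the comparison set, matched on span.

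HiChIP joins proximity ligation of chromatin with immunoprecipitation, here of acetylated lysine 27 of histone H3, a mark of active promoters and enhancers. The Ishikawa line is a human endometrial adenocarcinoma line, and its 4 samples were 2 treated for 1 h with 10 nM 17beta-estradiol (E2) and 2 given the vehicle DMSO, all digested with DpnII. The authors combined the loops of both treatments into 1 list in which no row names a sample, so no block was tied to a treatment or a replicate, and no effect of E2 can be read from it. The T-47D list (1 sample of a breast cancer line) and the LNCaP list (2 samples of a prostate cancer line) served only to ask whether an Ishikawa pair was also found elsewhere.

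Enhancers act on promoters that may lie far away along the chromosome, and contacts between acetylated elements are read as candidate enhancer-promoter or promoter-promoter links. CTCF, a zinc finger protein that halts cohesin, marks many loop ends, most often with a pair of motifs that point towards each other. The estrogen receptor binds a palindrome called the estrogen response element, and in endometrial cells much of its binding lies away from promoters.

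Sequences were read from the anchors of the core loops that hold these motifs. Both anchors of 12 core loops held CTCF core motifs in convergent orientation, and the motifs of the 5 with the highest lowest block value are shown first, because they are the ends at which orientation can be seen. Each sequence is given 5′ to 3′ on the strand that reads the motif, from GRCh37, with the 12 bases that matched the motif in capitals.
chromosome 2 loop, upstream anchor, chr2:232477427-232477454, plus strand: gcaactggCCACCAGGGGGCgccgctcc
chromosome 2 loop, downstream anchor, chr2:232535787-232535814, minus strand: ctctgtggCCACCAGGTGGCctgttgag
KAZN loop, upstream anchor, chr1:15304229-15304256, plus strand: agagaggtCCACCAGGTGGCtctggcca
KAZN loop, downstream anchor, chr1:15354165-15354192, minus strand: agctgctgCCAGCAGGGGGCcccccttt
RAE1 loop, upstream anchor, chr20:55664847-55664874, plus strand: cccggcggCCAGCAGAGGGCagcagcca
RAE1 loop, downstream anchor, chr20:55921624-55921651, minus strand: agcgtttgCCAGCAGAGGGCgaccttgg
RECQL5 loop, upstream anchor, chr17:73629161-73629188, plus strand: cgaggcggCCACCAGAGGGCgctcctgc
RECQL5 loop, downstream anchor, chr17:73746126-73746153, minus strand: ccccttcaCCACCAGGGGGCgccagaga
TAMALIN loop, upstream anchor, chr12:52398008-52398035, plus strand: actcatggCCACCAGAGGGCataaccac
TAMALIN loop, downstream anchor, chr12:52515798-52515825, minus strand: aggacctcCCACTAGAGGGCgcgacggt

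The 12 capital letters were alike at both ends in 1 of the 5 loops, the RAE1 loop. Its upstream anchor held 2 motifs, of which 1 is shown. The anchors of the chromosome 2, KAZN and TAMALIN loops shared a stretch of 50 identical bases, as did 8.14% of all core loops. The chromosome 2 loop joined intergenic anchors 56.9 kb apart and held 9, 8, 18 and 13 read pairs in blocks 1 to 4. The RAE1 loop, which reached the promoter of an mRNA export factor from 262 kb away, held 11, 5, 12 and 11. The RECQL5 loop, from the promoters of a DNA helicase and of SMIM5 and SMIM6 to the body of ITGB4 (an integrin of hemidesmosomes), held 5, 6, 10 and 9. A CTCF core motif lay in 2.47% of all 92121 anchors that formed a pair.

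Estrogen response elements were also searched, on both strands, as the exact palindrome with any 3 bases between its arms. They lay in 130 core loops, and 4 from the promoter loops with the highest lowest block value are shown, with the palindrome in capitals.
AMOTL2 anchor, chr3:134094002-134094030, plus strand: gaaaatccGGTCAATTTGACCcacctacc
CUEDC1 anchor, chr17:55977340-55977368, plus strand: attggtaaGGTCAGGCTGACCtgacttgc
DNAJC17 anchor, chr15:41088215-41088243, plus strand: ggaatataGGTCAGTATGACCtttctgaa
NT5C2 anchor, chr10:104915836-104915864, plus strand: ttacttgaGGTCAAGGTGACCacagtgag

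The AMOTL2 loop joined the promoter of this angiomotin family gene to an intergenic anchor 31.7 kb away, with 20, 15, 51 and 31 read pairs in blocks 1 to 4. The CUEDC1 loop, between a promoter and an intron of the gene, held 20, 8, 47 and 43. The DNAJC17 anchor, in an intron, met the promoters of C15orf62, GCHFR and RMDN3 29.0 kb away with 11, 8, 16 and 18. The NT5C2 loop joined 2 promoter anchors of this nucleotidase gene and held 13, 8, 15 and 16. After scaling for depth its SD over the mean of the blocks was 0.103, against 0.469 at AMOTL2 and 0.527 at CUEDC1, both highest in block 3. The element was present in 0.571% of all anchors. A match is a string of letters and no measurement of receptor binding.

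Core loops were short. Their median span between anchor centres was 15.6 kb, against 16.1 kb for pairs in 3 blocks, 22.3 kb for pairs in 2 and 53.0 kb for loops seen once. The middle 90% of core spans ran from 6.75 to 96.9 kb. In 67.0% of core loops the anchors were neighbours, with no other anchor between them, against 26.5% of loops seen once (63.0% when those were weighted to the spans of core loops). The anchors of core loops were also wide: the summed width of both had a median of 17.7 kb against 12.4 kb for loops seen once. After weighting to the same spans the mean summed width was 19.6 kb for core loops and 11.6 kb for loops seen once. Neighbouring anchors had an odds ratio of 1.44 (interval 1.33 to 1.57) against loops seen once with span matched. With summed width matched as well, the direction turned, to 0.647 (0.579 to 0.722). The main odds ratios below are therefore also given with width matched.

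**Figure D1:**
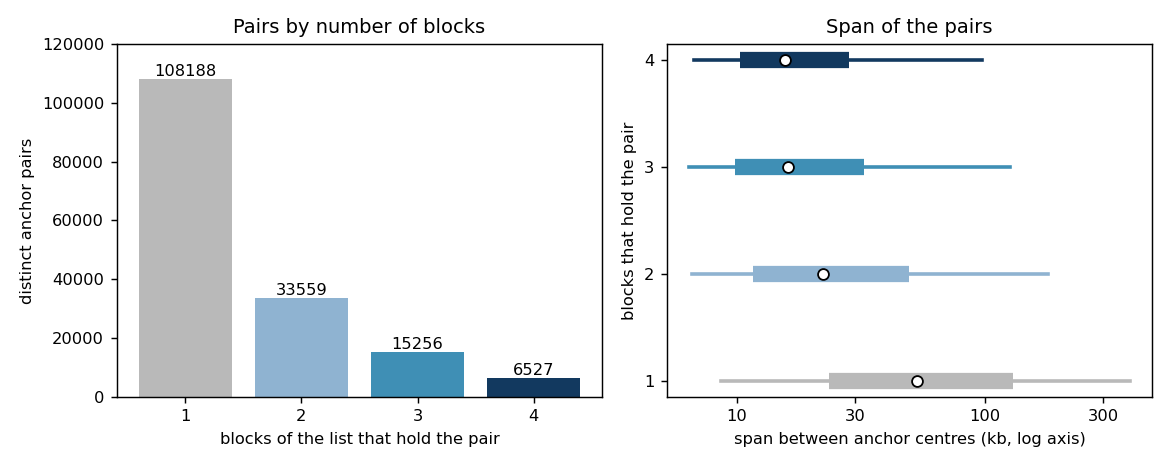
Left, the number of distinct anchor pairs carried by 1, 2, 3 or 4 blocks of the Ishikawa list. Right, the span between anchor centres in kb on a log axis for each set, with the median as a point, the middle 50% as a thick bar and the middle 90% as a thin line. Core loops (4 blocks) are the smallest set, with a median span of 15.6 kb against 53.0 kb for pairs in 1 block.

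The blocks differed in size, from 32932 rows and 130328 read pairs in block 2 to 136468 rows and 660684 read pairs in block 4, with 88357 rows in block 1 and 74445 in block 3. Core loops made up 27.0% of the distinct pairs of block 2 and 6.53% of those of block 4. A core loop had a median of 5, 4, 5 and 7 read pairs in blocks 1 to 4 and 23 in all, from 12 to 428. Because every row held at least 3 read pairs, many values lay at that limit: 20.1, 38.7, 18.7 and 8.82% of core loops had exactly 3 in blocks 1 to 4. Just inside the limit were 3692 core loops (56.6%) whose lowest block value was 3, with a median of 19 read pairs in all. Just outside it were the 15256 pairs missing from 1 block, with a median of 13, and 61.8% of them were missing from block 2. The absence was thus most often from the smallest block.

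Recurrence was also read with each block left out of the choice. Of pairs present in the 3 other blocks, 74.3% (95% Wilson interval 73.4 to 75.2) also had a row in block 1, 40.9% (40.2 to 41.7) in block 2, 69.7% (68.8 to 70.7) in block 3 and 89.8% (89.1 to 90.5) in block 4. Pairs present in 1 of the 3 other blocks recurred in 19.1, 5.14, 15.4 and 32.4% of cases, and pairs in 2 of them in 46.9, 17.2, 41.1 and 68.9%. In each block the share rose with the number of other blocks that carried the pair. These intervals cover counting error only, since PCR copies, shared anchors and neighbouring pairs are not independent.

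Promoters were found at core loops more often than at loops seen once. An anchor counted as a promoter anchor where it overlapped the 500 bp around a start site of a protein-coding gene. Of core loops, 2237 (34.3%, interval 33.1 to 35.4) had a promoter in 1 or both anchors, against 23.6% of loops seen once, or 21.1% after weighting to the core spans. Within 20 strata of span the Mantel-Haenszel odds ratio was 1.97 (95% interval 1.87 to 2.09), and it was above 1 on 22 of 22 autosomes. It was 1.46 (1.36 to 1.56) when summed anchor width was matched as well. Pairs in 2 and 3 blocks lay between, at 25.6 and 29.3%, and against pairs in 3 blocks the odds ratio of core loops was 1.29 (1.22 to 1.38).

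Promoters in both anchors were the less common class. They were seen in 390 core loops (5.98%) and 2.99% of loops seen once, with an odds ratio of 2.38 (2.12 to 2.66), above 1 on 22 of 22 autosomes. The value was 1.47 (1.27 to 1.70) after matching on width too, a reduction by more than 1.5 times. Most core loops with a promoter, 1847 of them (28.3% of all core loops), joined it to an anchor without one, and 4290 core loops (65.7%) had no promoter of a protein-coding gene. In 1049 core loops (16.1%) a promoter was joined to an anchor over the body of its own gene (odds ratio 1.72, 1.60 to 1.85; 1.21, 1.10 to 1.32, after matching on width). Promoters of long noncoding RNA genes lay in 23.3% of core loops and 14.9% of loops seen once.

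The 9293 anchors of core loops fell into 1610 promoter anchors (17.3%), 2411 that touched an exon (25.9%), 1781 within introns (19.2%) and 3491 between genes (37.6%). Anchors whose pairs were all seen once were promoters in 10.4% and lay between genes in 48.4% of cases. Per megabase of sequence, however, promoter anchors were about as dense in both, at 20.7 and 19.8. Core anchors had a GC content of 44.8% against 41.0%, and 14.4 against 10.6 CpG dinucleotides per kb. CTCF core motifs occurred at 5.33 against 3.66 per Mb and estrogen response elements at 1.02 against 0.940 per Mb. The rise with recurrence in GC, CpG and CTCF motifs was stepwise over anchors whose best pair had 1, 2, 3 and 4 blocks, while that of estrogen response elements was not.

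Convergent CTCF motifs were rare but more frequent in core loops, with 12 of 6527 (0.184%, interval 0.105 to 0.321) against 40 of 108188 loops seen once (0.0370%). The odds ratio was 8.42 (4.05 to 17.5) within span strata and 2.34 (0.964 to 5.70) once width was matched, where the interval took in 1. Over all the alternatives run, it lay between 2.34 and 15.97, and it was 4.91 without block 4 and 5.00 without block 2. Without pairs whose anchors share 50 bases, chosen after seeing the data, it was 6.11 (2.65 to 14.1). Tandem motifs had an odds ratio of 4.34 (2.26 to 8.32), which was 1.44 (0.559 to 3.72) with width matched. Divergent motifs, seen in 3 core loops, had 2.64 (0.762 to 9.15), and with width matched the direction turned, to 0.623 (0.123 to 3.14). Estrogen response elements in either anchor had 1.80 (1.49 to 2.18) within span strata and 1.15 (0.903 to 1.47) with width. For these motifs a difference from width-matched loops was not detectable at these numbers.

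**Figure D2:**
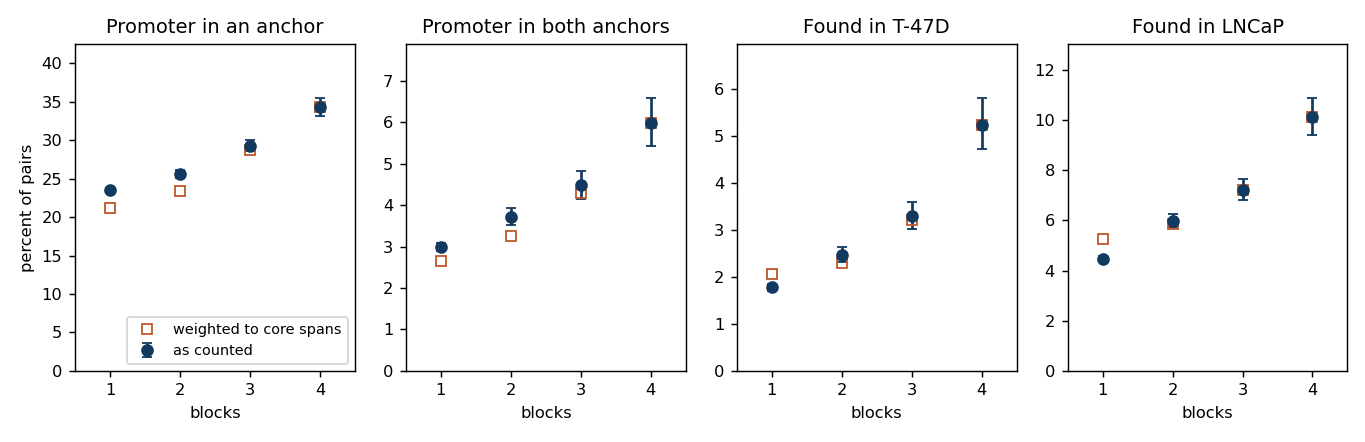
Percent of pairs with a promoter in an anchor, with promoters in both anchors, found in the T-47D list and found in the LNCaP list, for pairs in 1, 2, 3 and 4 blocks. Filled points are the shares as counted with 95% Wilson intervals, and open squares are the shares weighted to the spans of core loops. All 4 shares are highest in core loops, at 34.3, 5.98, 5.22 and 10.1%.

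Presence in the other cell lines followed the same order under the overlap rule used here, 1 bp at both anchors. The T-47D list held 341 core loops (5.22%) and 1.77% of loops seen once, and the odds ratio within span strata was 2.69 (2.38 to 3.04), above 1 on 20 of 22 autosomes. The LNCaP list held 660 (10.1%) against 4.45%, with an odds ratio of 2.08 (1.91 to 2.28), above 1 on 21 of 22 autosomes. With width matched these became 1.46 (1.25 to 1.71) and 1.53 (1.36 to 1.71). The direction turned when the overlap had to cover at least 50% of both anchors, to 0.0545 (0.00752 to 0.395) for T-47D, where 1 core loop was left, and 0.890 (0.673 to 1.18) for LNCaP. Core anchors were wide beside those of the other lists, with a median of 7.00 kb against 2.83 kb for T-47D anchors and 4.35 kb for LNCaP anchors. When 50% of only the other list's anchors had to be covered, a rule chosen after the values were seen, the odds ratios were 2.91 (2.55 to 3.33) and 2.82 (2.52 to 3.14).

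Both lists held 206 core loops, and 5732 core loops were in neither. These counts were not made for loops seen once, whose share in each list is given above. The T-47D list held 42027 pairs and the LNCaP list 149226. Per the study's methods, samples of both lines were sequenced to fewer read pairs than those of Ishikawa cells. Absence from a list is therefore not absence of a contact. Read pairs given below for the other lists are the highest among the loops there that overlapped both anchors. Such a loop need not be the same contact. Among the loops in both, the one with the highest lowest block value joined 2 anchors at NDST1 (a heparan sulfate sulfotransferase), 39.5 kb apart, and its T-47D and LNCaP counterparts had 88 and 21 read pairs. A loop within NBPF1, of a family of near-identical copies on chromosome 1, held 3 and 14 there. Both lists also held loops of PWWP2B, whose promoter met an intergenic anchor 47.9 kb away (30 and 179 read pairs) and its own exons 27.8 kb away (41 and 214). The promoter anchor of C12orf57 and the phosphatase gene PTPN6 met that of EMG1 and PHB2. The strongest loops overlapping this one had 19 T-47D and 797 LNCaP read pairs.

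**Figure D3:**
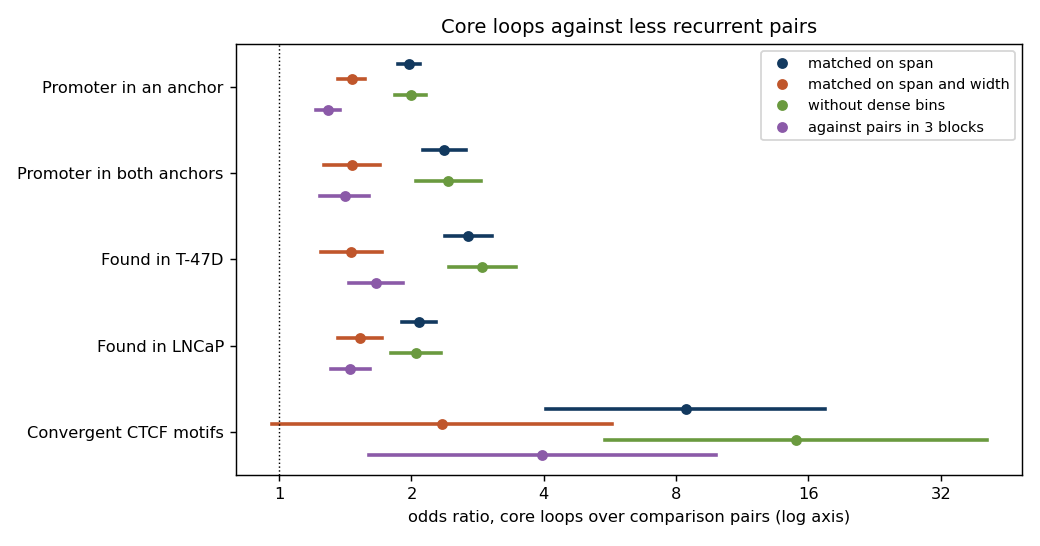
Mantel-Haenszel odds ratios (points) with 95% intervals (lines) on a log axis for 5 features of core loops, each matched on span, matched on span and summed anchor width, computed without dense bins, and computed against pairs in 3 blocks. The dotted line marks 1. Matching on width moves each value towards 1, and the interval for convergent CTCF motifs then takes in 1.

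The strongest core loops, ranked by their lowest block value, fell at a few loci. The first joined intergenic anchors on chromosome 10 (42359813 to 42396845 and 42597294 to 42602418) and held 115, 122, 62 and 129 read pairs in blocks 1 to 4. The second, on chromosome 16 near position 46399613, held 103, 83, 42 and 144. Both were lowest in block 3, unlike most loops named here. In each of these 2 loops the anchors shared a stretch of 50 identical bases. Of these 10 loops, 4 lay between 16884135 and 17056372 on chromosome 1 around NBPF1, the strongest with 54, 34, 80 and 69. Anchors that shared at least 1 identical stretch of 50 bases, on either strand, made up 8.14% of core loops and 3.08% of loops seen once (odds ratio 3.42, 3.09 to 3.79, and 2.05, 1.80 to 2.35, with width matched). Among core loops whose lowest block value was 10 or more it was 19.3%, and among those at 25 or more 45.5% (5 of 11). Whether reads were placed at the wrong copy was not tested.

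Among the 10 strongest loops, 3 joined promoters of protein-coding genes. CDK3, a cyclin-dependent kinase gene, met EVPL, which encodes the cornified envelope protein envoplakin, 22.9 kb away on chromosome 17, with 32, 33, 82 and 62 read pairs in blocks 1 to 4. The NDST1 loop held 45, 29, 110 and 77. KCNJ5, a potassium channel gene, met TP53AIP1, an apoptosis gene regulated by p53, 32.4 kb away on chromosome 11 with 39, 26, 55 and 44. Each of the 3 was highest in block 3, both as counted and after scaling to the read pairs that core loops held in each block. The anchors of the CDK3 loop shared 50 bases and those of the NDST1 and KCNJ5 loops did not.

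Long core loops were few. A span of over 100 kb was seen in 312 (4.78%), of over 500 kb in 11 and of over 2 Mb in 5. The 5 longest all lay within chromosome 1: 4 ran 217789 to 217986 kb from 4 anchors near NBPF1 and CROCC to 1 anchor at 234904575 to 234920859, and the other ran 128365 kb to an anchor that starts at 145378971. The loop with most read pairs among them held 20, 10, 21 and 26 in blocks 1 to 4, and the weakest 4, 3, 3 and 3. The anchors of the loop from CROCC shared 50 identical bases, and those of the rest of the 5 did not. Whether reads of these loops were placed at the wrong position was not tested, so no contact at such spans is established. Below 1 Mb, and chosen after their values were seen, the promoter of HMGA2 (an architectural chromatin protein) met exons of MSRB3 523 kb away with 4, 6, 7 and 8, and the promoter of the xylosyltransferase gene XXYLT1 met an intergenic anchor 556 kb away with 3, 6, 5 and 6. A promoter lay in 43.9% of the 312 core loops over 100 kb, and 74.0% of the 312 lay in dense bins (defined below). No share was computed for loops seen once of that span, so no enrichment can be read from it.

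A total of 1647 of 20163 protein-coding genes (8.17%) had a core loop at a promoter, and these were 16.3% of the 10113 genes with any Ishikawa loop there. Most, 1048 genes, had 1 core loop, and 91 had 5 or more. PDE4DIP, which encodes the centrosomal protein myomegalin, had most, with 19 core loops of 49 loops, followed by TNK2 (a cytoplasmic tyrosine kinase) with 15 of 61. AL590452.1, which shares an anchor with PDE4DIP, had 13 of 21. NT5C2 had 12 of 90, PWWP2B 12 of 43 and CTDP1, a phosphatase of RNA polymerase II, 12 of 38. KRT8 (keratin 8 of simple epithelia), MBP (myelin basic protein) and SEC22B (a vesicle SNARE) had 11 each, of 41, 60 and 37. CLEC4C, a lectin receptor of dendritic cells, had 10 of 42. ENSG00000289747 also had 10, at the anchor it shares with TNK2. The PDE4DIP and SEC22B counts rest on a part of chromosome 1 that GRCh38, a later build, arranges differently. The SEC22B promoter sequence starts at 145096158 on the plus strand of GRCh37 and at 120176471 on the minus strand of GRCh38. The GRCh38 promoter sequence of PDE4DIP was not found in GRCh37. Partners and spans of these genes therefore hold for GRCh37 coordinates only.

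The promoters of CTDP1 and KRT8 are shown because each lay in an anchor with several core partners and their base composition differed. They are RefSeq windows of 300 bases, 250 before the start and 50 after it, on the strand of the gene (GRCh38.p14), with CpG dinucleotides in capitals. The same sequences were found once in GRCh37, at chr18:77439553-77439852 on the plus strand and at chr12:53320204-53320503 on the minus strand.
CTDP1 promoter: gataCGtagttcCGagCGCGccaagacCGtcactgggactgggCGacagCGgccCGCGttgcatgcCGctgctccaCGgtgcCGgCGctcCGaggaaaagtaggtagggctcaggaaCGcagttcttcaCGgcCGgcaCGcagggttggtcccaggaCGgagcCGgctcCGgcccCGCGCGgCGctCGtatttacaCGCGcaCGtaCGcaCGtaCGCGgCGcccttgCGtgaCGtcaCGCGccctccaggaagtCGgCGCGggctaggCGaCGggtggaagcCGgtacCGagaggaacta
KRT8 promoter: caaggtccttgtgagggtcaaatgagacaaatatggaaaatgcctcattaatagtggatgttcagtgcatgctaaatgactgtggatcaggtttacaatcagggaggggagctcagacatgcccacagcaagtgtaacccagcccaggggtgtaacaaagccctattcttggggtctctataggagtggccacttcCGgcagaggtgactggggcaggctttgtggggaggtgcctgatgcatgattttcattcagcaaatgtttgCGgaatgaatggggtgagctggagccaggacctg

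The CTDP1 window held 45 CpG dinucleotides and 68.7% GC, and the KRT8 window 2 and 50.7%. The median over 15318 such windows of protein-coding genes was 22. The CTDP1 window lay in an anchor with 12 core partners, and the KRT8 window in an anchor with 5. KRT8 promoters also lay in the anchors at 53291903 to 53303334 and 53335339 to 53345349. The second of these held the 5′ end of the annotated gene (53343738, minus strand). The window shown therefore does not stand for every KRT8 promoter. A comparison of gene sets on these windows was void, since 77.8% of the genes with a core loop had one.

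KRT8 and its partner gene KRT18, whose protein pairs with keratin 8 in filaments, made a compact core. The 11 core loops at KRT8 promoters held 65, 78, 165 and 115 read pairs in blocks 1 to 4, and 5 of them also touched a KRT18 promoter. In 5 of the 11 the anchors shared 50 identical bases, against 8.14% of all core loops, and all 11 lay in dense bins (defined below). Whether reads were placed at the wrong copy was not tested. Scaled for depth the KRT8 sums were 68.4, 112, 159 and 87.4, and block 3 was highest in 9 of the 11 loops and block 2 in the other two. Over all core loops, block 3 was highest in 24.8%. The strongest KRT8 loop, to an intergenic anchor 14.6 kb away, held 11, 10, 19 and 23. A loop of 17.3 kb between a KRT8 promoter and the anchor with promoters of both genes held 9, 12, 27 and 10. Both genes mark the simple epithelium from which endometrial carcinoma arises.

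The identity of the cells was checked on marker genes. Of 5 Müllerian and endometrial markers, PAX8 and EMX2 had core loops, HOXA10 and SOX17 had other Ishikawa loops (15 and 3), and HOXA11 had none. Of 5 epithelial markers, KRT8 and KRT18 had core loops, and CDH1, CLDN4 and EPCAM had 6, 8 and 1 other loops. Of 5 stromal markers none had a core loop, COL1A1 and COL3A1 had 3 and 2 loops, and DCN, PDGFRA and HAND2 had 0. The immune markers PTPRC and CD3E and the hepatocyte markers ALB and APOA1 had no loop at a promoter.

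The gene lists were chosen with earlier results of these data known, so their shares, here and below, are a description only. Genes of Müllerian and endometrial identity had core loops in 6 of 15 cases (40%, against 8.17% of all protein-coding genes). Of the 11 with any loop it was 54.5%, against 16.3%. The shares of housekeeping genes were 25% and 27.3%. The core loops of MECOM, FOXJ1, EMX2 and PAX2 lay in dense bins (defined below), and those of MSX1 and PAX8 did not. In dense bins 6.61% of pairs were core loops, against 2.67% outside. Whether position accounts for the share was not tested. MECOM, a zinc finger transcription factor gene, had 7 core loops among 105 loops, and they held 78, 42, 49 and 104 read pairs in blocks 1 to 4. Its scaled sums were 82.1, 60.6, 47.1 and 79.0, and block 3 was the highest in 0 of the 7. FOXJ1, the regulator of motile cilia, had 4 core loops, the strongest to the promoter of EXOC7 with 11, 7, 9 and 10. EMX2, a homeobox gene of the Müllerian tract, had 2 (8, 6, 8 and 14 in the stronger). MSX1 had 1 of 356 kb, to an intron of STX18, with 15, 5, 22 and 12. PAX8 and PAX2, paired box factors of the same tract, had 1 each with 4, 3, 5 and 4 and with 4, 3, 4 and 5, close to the limit of 3 in each block.

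Genes of the estrogen response had core loops in 5 of 24 cases (20.8%, against 8.17% of all protein-coding genes), and in 31.2% of the 16 with any loop, against 16.3%. Housekeeping genes stood at 25% and 27.3% on the same measures. The TGFA loop joined a promoter of this EGFR ligand gene to an intron of the gene 24.8 kb away (chr2:70685893-70700495 and chr2:70710136-70725808) and held 5, 4, 7 and 6 read pairs. It was 1 of 15 loops at TGFA promoters, and 3 others were in 3 blocks. The promoter in the core loop was that of an inner start site. The 5′ end of the gene (70781325, minus strand) lay in another anchor, chr2:70778958-70788498. That anchor had no core loop, and the 3 loops in 3 blocks were its own. PEG10, an imprinted gene derived from a retrotransposon, had no Ishikawa loop at a promoter. RARA, the retinoic acid receptor alpha gene, had 2 core loops (6, 3, 10 and 12 in the stronger). IGFBP4, which binds insulin-like growth factors, had 1 with 8, 8, 13 and 16, and FKBP4, a cochaperone of steroid receptors, 1 with 8, 5, 9 and 7. ELF3, an epithelial ETS factor, had 1 with 3, 6, 14 and 5. After scaling, block 3 was highest in all 6 of these loops, by a small margin at FKBP4 (8.65 against 8.42 in block 1) and IGFBP4 (12.5 against 12.2 in block 4), where 24.8% of all core loops were highest in block 3.

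The other lists are read against the same shares of 8.17% of all protein-coding genes and 16.3% of those with any loop. Epithelial structure had core loops at 4 of 19 genes (21.1%), which besides KRT8, KRT18 and ELF3 included DSP (desmoplakin) with 7, 3, 5 and 4 read pairs. Of the immediate early genes 4 of 18 (22.2%) had 1 core loop each: JUNB (11, 3, 11 and 12), JUND (7, 3, 19 and 14), EGR3 and IER3. Of 11 EGFR ligands and receptors, TGFA and ERBB2 had 1 each. Coregulators had 1 of 14, the acetyltransferase gene CREBBP (3, 3, 4 and 6), and genes of loop formation 1 of 14, LDB1 (6, 6, 20 and 8), whose loop met the PPRC1 promoter. Housekeeping genes had 6 of 24 (25%), among them TUBA1B, ENO1 and LDHA. Stromal and immune genes had 0 of 15, of which 4 had any loop, and genes of other tissues 1 of 18, the lens crystallin gene CRYAA with 4, 5, 7 and 9. The median number of core loops was 0 in each of the 10 lists, as it was over all protein-coding genes.

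Core loops shared anchors. Of 9293 anchors, 7110 (76.5%) had 1 core partner. On GRCh37 coordinates, the largest hub was the anchor of PDE4DIP and AL590452.1 on chromosome 1 (144984693 to 145011536). It had 13 core partners of 21 in all and 213, 114, 130 and 249 read pairs in blocks 1 to 4. GRCh38 arranges this region differently, as stated above. The PWWP2B anchor had 12 core partners up to 266 kb away, and its blocks held 123, 92, 206 and 175. The CTDP1 anchor had 12 partners up to 314 kb away (94, 55, 92 and 102). An intergenic anchor at 17024241 to 17056372 of chromosome 1 had 11 partners (273, 157, 319 and 321), and that of CLEC4C 10 (56, 54, 76 and 73). The 5 hubs were 17.5 to 38.5 kb wide, and the median core anchor was 7.00 kb wide.

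Joined through shared anchors, core loops formed 3332 groups, of which 2361 (70.9%) were single loops and 65 held 10 or more anchors. The largest, chosen after their sizes were seen, had 41 anchors each. One lay on chromosome 10 (133998965 to 134862799) with 73 core loops and PWWP2B, CFAP46 and NKX6-2 among its promoters. The other lay on chromosome 3 (194184668 to 195238935) with 49 core loops at XXYLT1, ATP13A3, TMEM44 and LSG1. The keratin group on chromosome 12 held 32 anchors and 47 core loops, with NR4A1 and KRT86 among its promoters besides KRT8 and KRT18.

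The core was uneven along the genome. It made up 6.16% of the pairs of chromosome 12, 6.05% of those of chromosome 10, 6.01% of chromosome 17, 5.30% of chromosome 18 and 4.40% of chromosome 3, and between 2.25 and 3.98% on the other autosomes. On chromosome X it was 0 of 95 pairs, which allows a share of up to 3.16%. Chromosome 12 had 9.39 core loops per Mb against 0.703 on chromosome 13. The bins of 1 Mb with most core loops were 134 to 135 Mb of chromosome 10 (76 of 514 pairs), where PWWP2B lies, 73 to 74 Mb of chromosome 17 (67 of 566) with RECQL5, CDK3 and ITGB4, 77 to 78 Mb of chromosome 18 (64 of 398) with CTDP1, 53 to 54 Mb of chromosome 12 (61 of 387) with the keratin genes, and 56 to 57 Mb of chromosome 12 (51 of 413) with CDK2, PMEL and RAB5B.

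Much of this lay in dense bins, those with at least 126 pairs or 3 times the median of 42. They were 253 of 2715 bins and held 3633 core loops (55.7%) and 30.6% of loops seen once, or 20.4% after weighting to core spans. Of the dense bins, 71 were on chromosome 12, 55 on chromosome 10, 36 on chromosome 3 and 18 on chromosome 17. Outside them the core share was 3.13% on chromosome 12, 2.54% on chromosome 10, 2.19% on chromosome 3, 4.01% on chromosome 17 and 2.61% on chromosome 18. The dense bins were chosen from pair counts, so these shares describe the list. Without them the odds ratios were 1.99 (1.83 to 2.16) for a promoter and 2.42 (2.04 to 2.88) for promoters in both anchors.

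**Figure D4:**
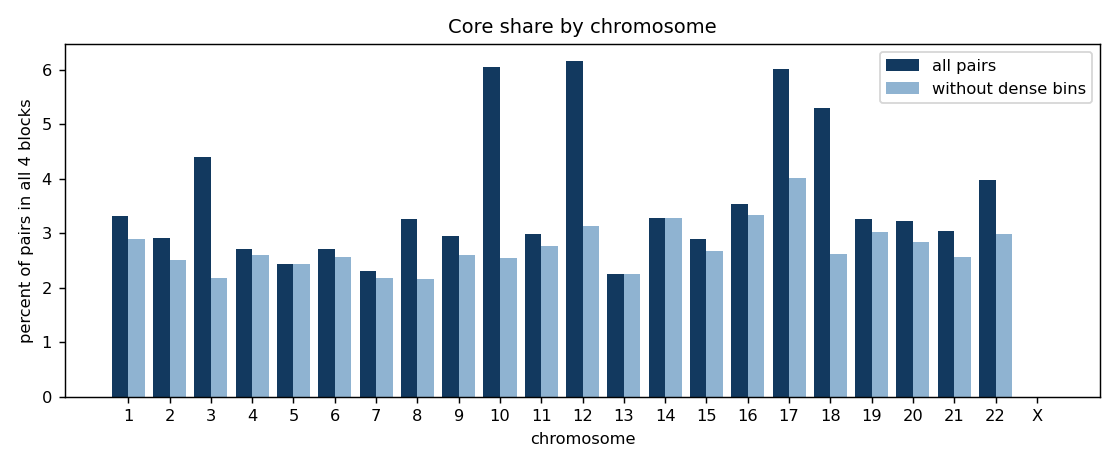
Percent of distinct pairs on each chromosome that were core loops, over all pairs (dark bars) and without dense bins of 1 Mb (light bars). Chromosomes 10, 12, 17 and 18 exceed 5% over all pairs, and chromosome 17 is highest, at 4.01%, without dense bins.

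Block values of a core loop were compared after scaling each block to the read pairs it held in core loops. The spread, the SD over the mean of the 4 scaled values, had a median of 0.310 (middle 50% 0.224 to 0.404). Poisson counting gives each loop an expected root-mean-square spread, and the median of that value over loops was 0.428. The limit of 3 read pairs removes low values and narrows the spread of weak loops. The spread of 4 values also lies below its root mean square more often than above it. The comparison with counting is therefore not an even one. In the 686 core loops with 40 or more read pairs the median spread was 0.315, against a median root-mean-square value of 0.293 from counting. Of these loops, 59.5% lay above their own root-mean-square value. Scaled by all rows of a block instead, the median over core loops was 0.537, since core loops held from 12.9% (block 4) to 33.3% (block 2) of the read pairs that joined different anchors in a block. Between pairs of blocks the rank correlation across core loops ran from 0.317 to 0.497. This is a description across loops that share the choice by recurrence.

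Among the 686, the smallest spread, 0.0270, was at FAT2, an atypical cadherin gene, whose promoter met an intergenic anchor 52.1 kb away with 12, 9, 13 and 16 read pairs. A KBTBD11 loop (12, 8, 13 and 16) and the loop of EVPL with SRP68, a subunit of the signal recognition particle (13, 10, 13 and 17), followed at 0.0398 and 0.0637. The largest, 0.872, was between intergenic anchors at 239445793 to 239458996 of chromosome 2 with 8, 3, 39 and 23. CXXC5, a zinc finger gene, had 0.815 (6, 4, 28 and 13), and a loop from an intron of KRT8 to the KRT8 and KRT18 promoters 0.795 (5, 3, 22 and 11). The 3 loops with large spread were all high in block 3 and low in block 2. Block 3 was highest in 39.1% of the 686 loops and in 40 of the 69 with the largest spread, at or above 0.514.

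**Figure D5:**
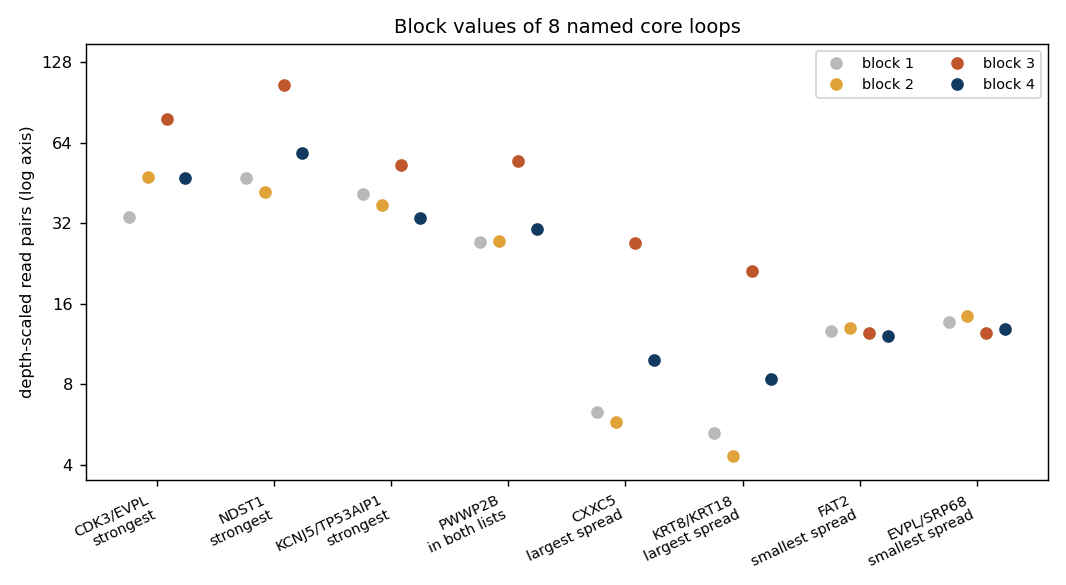
Read pairs of 8 named core loops in each of the 4 blocks, scaled to the read pairs of core loops in a block, on a log axis. Points are single block values, coloured by block, with no error bar because a block gives 1 value. Block 3 lies above the others in the CDK3, NDST1, KCNJ5, PWWP2B, CXXC5 and keratin loops, and the 4 points nearly coincide in the FAT2 and SRP68 loops.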

How the data were processed

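Per the labels and the study's methods, reads of 7 H3K27ac HiChIP samples were aligned to hg19 with HiC-Pro, loops were called with hichipper (versions not given in the sources used here), and loops under 3 reads or at an FDR at or above the authors' limit were removed. The deposited lists hold counts of read pairs per anchor pair, not scaled for depth, which the authors merged over the Ishikawa samples. Blocks were found by the return of the first chromosome of the list. Members and gene lists were chosen with earlier results of these data known.

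Anchors were set against GENCODE 44 mapped to GRCh37, the same build as hg19. Shares were compared with Mantel-Haenszel odds ratios in 20 span strata with Robins-Breslow-Greenland intervals; a call is an interval without 1, and no p-value was made because loops share anchors. The code was tested on simulated data. Genes and loops were named by rank (most core loops at a promoter, highest lowest block value, span, spread, partners, bins), from the lists, or as stated; 1 immune marker is not reported here. Python 3.11.15, pandas 2.3.3, SciPy 1.17.1, NetworkX 3.6.1 and pysam 0.24.0 were used. Replicates of a treatment cannot be told apart in the list, so no group comparison was made. Alternatives covered blocks left out, row limits, matching, comparison sets, promoter and overlap rules, motif patterns and dense bins.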

Additional observations from a re-analysis of the deposited data

Results flagged for a closer look

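In 5 of 73 named core loops 1 scaled block value stood apart from the other three, with a gap over the range above Dixon's 95% critical value for 4 values; chance flags about 1 in 20 such sets, and several of these loops were few in read pairs. The ratio was 0.889 at PWWP2B, where block 3 was high (26, 19, 57 and 40 read pairs in blocks 1 to 4). It was 0.857 for the intergenic loop on chromosome 16, where block 3 was low (103, 83, 42 and 144). It was 0.855 for the loop from MDC1 to the TUBB promoter, low in block 4 (5, 4, 6 and 3), 0.839 at CRYAA, low in block 1 (4, 5, 7 and 9), and 0.832 at ERBB2, low in block 4 (6, 4, 6 and 4). No explanation was tested.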

How the results depend on the processing

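The odds ratios of a promoter anchor (1.29 to 2.47 over 19 alternatives) and of promoters in both anchors (1.29 to 3.22 over 19) kept an interval above 1 under each alternative run. Convergent CTCF motifs lost the call with strata of span and summed width (2.34) and, chosen after seeing the data, of span and each anchor's width (2.50); a width effect was not tested otherwise. Presence in T-47D and LNCaP reversed when the overlap had to cover 50% of both anchors (0.0545 and 0.890), also with width matched (0.0910 and 0.926, chosen after seeing the data); the cause was not tested. With a row limit of 5 read pairs 1406 core loops and 516 genes were left, with spans of 20 kb to 1 Mb 2452 and 778, and without dense bins 2894 and 900. Leaving out a block and asking for the other 3 gave 7268 to 15952 core loops and 1799 to 3196 genes, most without block 2. The median spread was 0.537 when scaled by all rows of a block. Without pairs whose anchors share 50 bases, chosen after seeing the data, 5996 core loops remained and the odds ratio of a promoter was 1.90. No paired analysis was possible because the rows of the list carry no sample, so replicate numbers cannot be matched. Values near 3 read pairs limit what can be said of a single loop.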

Other observations

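Rows that join an anchor to itself were left out of the pairs. Of the anchors of core loops, 82.5% had such a row in at least 1 block and 25.8% in all 4, against 32.2 and 0.644% of anchors whose pairs were all seen once. Per kb of anchor these rows held 2.21 and 0.347 read pairs. Both measures come from the blocks that chose the core loops, so they are a description.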
